A study of Mus musculus with 8 samples.

Results

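The 8 genes described here encode the cytokines, receptors and transcription regulators of the T helper 1 (Th1) program: *Ifng*, *Tnf*, *Tbx21*, *Stat4*, *Il12rb1*, *Il12rb2*, *Ifngr1* and *Ifngr2*. They were chosen by name for their place in the pathway, with earlier results of these data known. All 8 were among the 11233 genes of the deposited table. Expression was measured by bulk RNA-Seq in 8 libraries of tumor-infiltrating conventional CD4+ T cells (Tconv cells), 4 sorted as CCR8+ and 4 as CCR8-. All the cells were EGFP-negative and came from B16-F10 tumors, a transplantable mouse melanoma, grown under the skin of mice of the Foxp3-EGFP_DTR genotype. In these mice EGFP and a receptor for diphtheria toxin (DTx) are expressed from the *Foxp3* locus, and the toxin therefore removes regulatory T (Treg) cells. Every animal of both groups received DTx, and the comparison of CCR8+ with CCR8- cells therefore lies wholly within Treg cell-depleted tumors and has no toxin-free control. The same gate, negative for EGFP, defined both groups, and CCR8, a chemokine receptor, was the only sorted difference. The labels name no age or time point. Whether libraries of the same replicate number came from the same mouse is not stated there. For this comparison the paper describes 4 biological replicates, all collected on the same day. P-values accordingly measure the spread between these libraries.

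Th1 cells are the CD4+ T cells that make interferon gamma (IFNγ) and help macrophages and CD8+ T cells against intracellular microbes and tumors. Interleukin-12 (IL-12) binds a receptor made of the chains encoded by *Il12rb1* and *Il12rb2* and activates STAT4, while IFNγ and antigen receptor signals induce T-bet, the product of *Tbx21*, and both factors act on the *Ifng* gene. IFNγ in turn binds a receptor of a ligand-binding chain (*Ifngr1*) and a signaling chain (*Ifngr2*), and Th1 cells are known to keep the signaling chain low.

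The libraries held between 12067780 and 17802628 reads in the genes of the table, and 3 reads were worth between 2.21 and 3.42 normalized counts. *Ccr8*, the gene of the sorted receptor, had 2039, 1293, 6214 and 4637 normalized counts in CCR8- replicates 1 to 4 and 7975, 6970, 42508 and 22965 in CCR8+ replicates 1 to 4, with no overlap. CCR8- replicate 1 stood apart, since 242 genes had no read there while having at least 100 normalized counts in each of the other 7 libraries. CCR8+ replicate 1 had 44 such genes, CCR8+ replicate 3 had 36 and the other 5 libraries had 0. Fold changes and list medians whose sign or size turned on CCR8- replicate 1 or CCR8+ replicate 3 are given with and without that library. The summed level of 8 T cell markers ranged from 79029 to 104221 in CCR8+ and from 77221 to 100746 in CCR8- libraries, with all 8 above 0 in every library.

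Promoter windows from the mouse genome are shown for the genes on which the results turn. *Ifng* and *Il12rb2* were the members lowest in CCR8+ replicate 3 relative to the other CCR8+ libraries, and *Ifngr2* was the member whose groups did not overlap. Each sequence is the 250 bases before the gene's start in RefSeq on build GRCm38.p6, written 5′ to 3′ on the strand of the gene. Windows were found for 7 of the 8 members, with no entry for *Il12rb1*. Capitals mark the T-box core AGGTGT, the letters bound by T-bet and its relatives, and the gamma-activated site TTCNNNGAA, the letters bound by STAT proteins. The searches took both strands.
Ifng, chr10:118440796-118441045, plus strand: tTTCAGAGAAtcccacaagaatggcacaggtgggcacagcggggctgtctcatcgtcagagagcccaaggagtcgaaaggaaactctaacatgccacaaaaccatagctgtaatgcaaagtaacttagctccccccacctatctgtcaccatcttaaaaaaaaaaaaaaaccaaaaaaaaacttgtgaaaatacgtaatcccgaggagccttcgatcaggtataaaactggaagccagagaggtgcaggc
Il12rb2, chr6:67376189-67376438, minus strand: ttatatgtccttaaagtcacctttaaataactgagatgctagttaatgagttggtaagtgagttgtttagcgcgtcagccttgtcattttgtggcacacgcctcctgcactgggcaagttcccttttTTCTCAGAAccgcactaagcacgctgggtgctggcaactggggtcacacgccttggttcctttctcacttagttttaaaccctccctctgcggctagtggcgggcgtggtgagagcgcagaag
Ifngr2, chr16:91546809-91547058, plus strand: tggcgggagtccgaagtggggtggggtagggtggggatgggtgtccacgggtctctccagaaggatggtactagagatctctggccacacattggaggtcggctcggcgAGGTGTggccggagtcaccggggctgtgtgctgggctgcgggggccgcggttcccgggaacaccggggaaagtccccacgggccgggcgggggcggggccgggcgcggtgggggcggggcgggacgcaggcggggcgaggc

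The gamma-activated site letters began at position -249 in the *Ifng* window and at -123 in that of *Il12rb2*, counting -1 as the base before the start, and were present in 7.02% of 32851 mouse windows of this length. The T-box core began at -141 in *Ifngr2* and at -137 in *Tnf* and was present in 11.8% of these windows. The AP-1 letters TGANTCA, present in 6.75% of windows, were in none of the 7 members' windows. The NFAT core GGAAA occurred in 55.6% of windows and in those of *Ifng*, *Tnf*, *Tbx21*, *Stat4* and *Ifngr2*. None of the motifs searched overlapped another in the 3 sequences shown. These matches describe letters only.

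Levels of the members relative to one another were compared as normalized counts per kilobase of exon. *Ifngr1* was highest at 6235 ± 1993 (SD, n = 8 libraries), and *Ifng* followed at 3719 ± 2524. *Stat4* had 610 ± 131, *Tbx21* 568 ± 167 and *Tnf* 358 ± 231 normalized counts per kilobase. The receptor chains *Ifngr2* (202 ± 104), *Il12rb1* (158 ± 79.3) and *Il12rb2* (92.1 ± 64.9) were lowest. The order held between neighbors within a library for *Ifngr1* above *Ifng*, *Ifng* above *Stat4* and *Tbx21* above *Tnf* in 7 of 8 libraries each. *Stat4* lay above *Tbx21*, and *Il12rb1* above *Il12rb2*, in 6 of 8 libraries. *Tnf* exceeded *Ifngr2* in 5 and *Ifngr2* exceeded *Il12rb1* in 4 of 8, and the means of *Ifngr2* and *Il12rb1*, like those of *Stat4* and *Tbx21*, differed by less than either SD. Some exonic bases are shared with other genes, namely 25.9% in *Ifng* (with Gm49751), 26.7% in *Stat4* (with Gm28177) and 40.0% in *Il12rb2* (with *Serbp1* on the opposite strand), and strand use in the counting is not given in the sources used here.

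**Figure D1:**
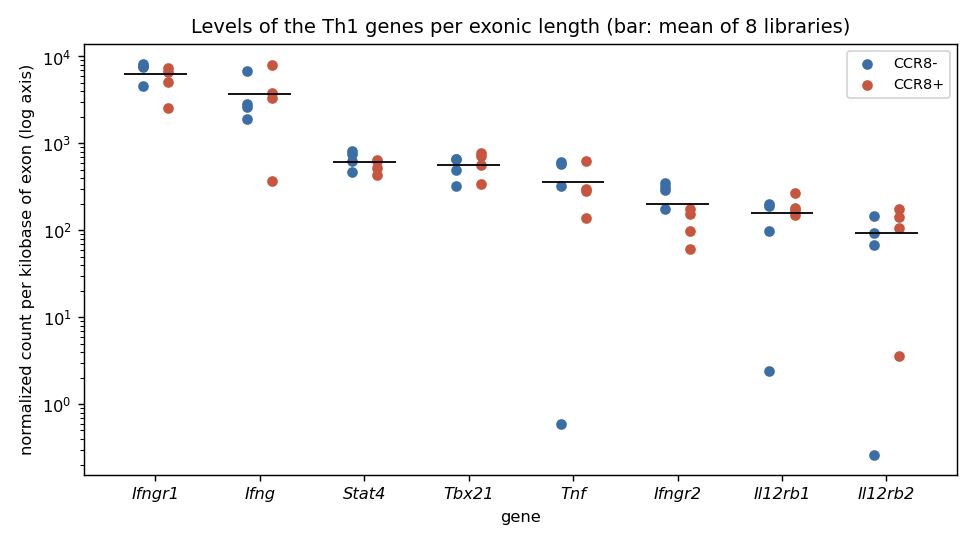
Levels of the 8 Th1 genes as normalized counts per kilobase of exon on a log axis, with a point for each library (CCR8- blue, CCR8+ red) and a bar at the mean of 8 libraries. Means run from 6235 for Ifngr1 to 92.1 for Il12rb2, and the low points of Tnf, Il12rb1 and Il12rb2 in blue are all CCR8- replicate 1.

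*Ifng*, which encodes the defining Th1 cytokine (chr10:118441046-118445892 on GRCm38, plus strand), did not differ between the groups beyond the spread. CCR8- replicates 1 to 4 had 2490, 3682, 3417 and 8762 normalized counts of *Ifng*, and CCR8+ replicates 1 to 4 had 4303, 4978, 479 and 10423. CCR8+ replicate 3 was the lowest library and CCR8+ replicate 4 the highest, so the CCR8+ values enclosed those of all CCR8- libraries. The means were 5046 ± 4096 in CCR8+ and 4588 ± 2829 in CCR8- cells (SD, n = 4 each), a ratio of 1.10. On the log2 scale the fold change of CCR8+ over CCR8- cells was -0.34 (SE 0.78, 95% confidence interval -2.04 to 1.37), opposite in sign to the ratio of means, with a limma adjusted p of 0.942 over 11032 genes. An exact two-sided permutation test over the 70 ways of assigning the labels gave p = 0.857. Without CCR8+ replicate 3 the log2 fold change was 0.58. In such bulk libraries, fewer cells making a transcript and less transcript per cell cannot be told apart.

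The summed markers of CD8 T and natural killer cells, which also make IFNγ, did not overlap between the groups, while *Ifng* did. Their summed level over 8 genes ranged from 2421 to 2941 normalized counts in CCR8+ and from 3948 to 9127 in CCR8- libraries. Taken singly, the markers overlapped between the groups. *Gzma*, a large part of the sum, ranged from 406 to 1586 in CCR8+ and from 1489 to 3057 in CCR8- libraries. *Cd8a* ranged from 130 to 481 and from 90.6 to 1984. The sort was for CD4+ cells, after enrichment for CD4, and so was meant to leave CD8 T and natural killer cells out. *Ncr1* and *Klrb1c*, which define natural killer cells, had no read in any CCR8+ library or in CCR8- replicate 1, and *Ncr1* had none in CCR8- replicate 2 either. CCR8- replicate 4, the CCR8- library highest in *Ifng*, was also highest in this sum. CCR8+ replicate 3 had a sum of 2477, within the range of the other CCR8+ libraries. The part of these cells in the *Ifng* values was not tested.

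*Tnf*, which encodes the inflammatory cytokine TNF (chr17:35199381-35202007, minus strand), was set by a single library on the log scale. Its normalized counts were 0.985, 524, 1011 and 959 in CCR8- replicates 1 to 4 and 229, 467, 492 and 1018 in CCR8+ replicates 1 to 4. The value in CCR8- replicate 1 was 1 read, and the other 3 CCR8- libraries lay within the CCR8+ range. Means were 551 ± 333 in CCR8+ and 624 ± 469 in CCR8- cells. The log2 fold change was 1.43 (SE 1.68, interval -2.25 to 5.12, limma adjusted p = 0.865, exact permutation p = 0.914), and it was -0.73 without CCR8- replicate 1. Macrophages, which the CD4+ sort was also meant to leave out, make TNF, and the summed level of 10 macrophage and monocyte markers was 35.5 in CCR8- replicate 1, the lowest of all libraries, against 1487 to 86252 in the other CCR8- and 3742 to 29496 in the CCR8+ libraries. CCR8+ replicate 3 was lowest of its group in this sum but not in *Tnf*. CCR8+ replicate 1 was highest of its group in this sum, at 29496, and lowest of its group in *Tnf*, at 229. The part of these cells was not tested.

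**Figure D2:**
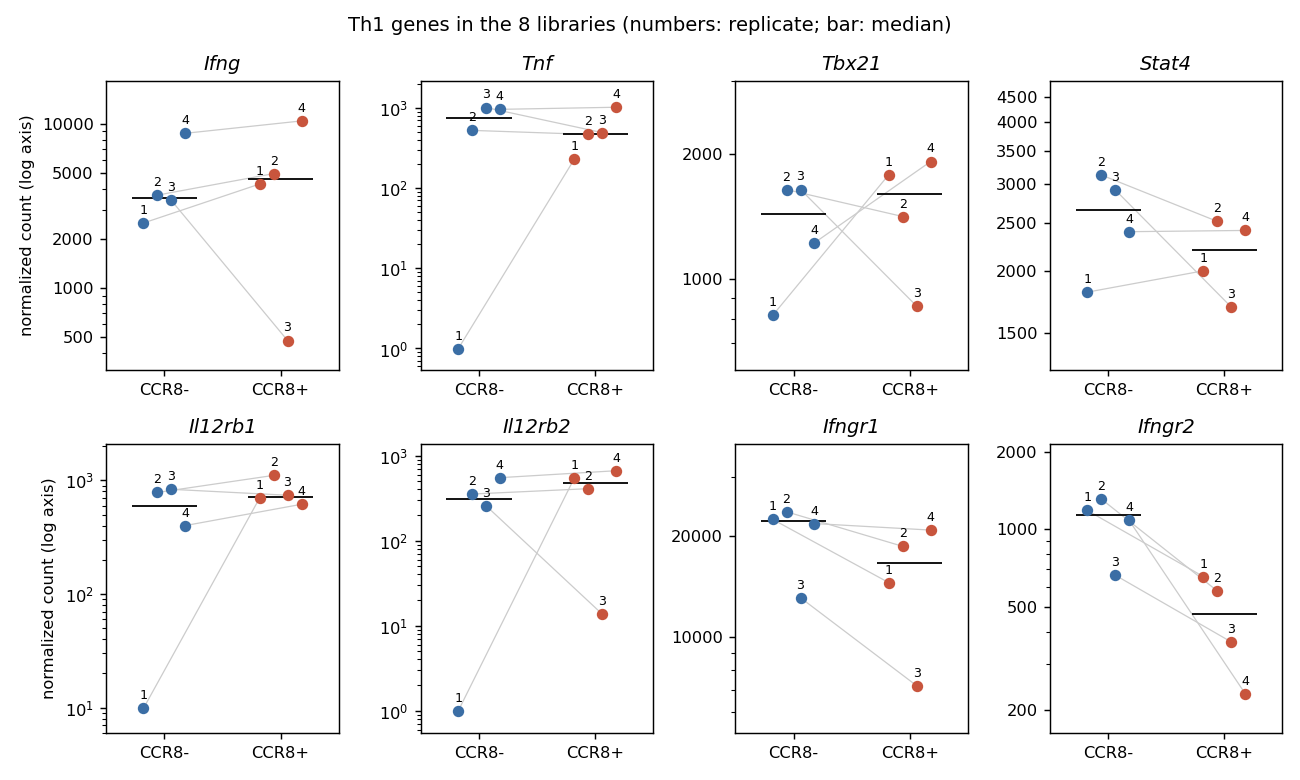
Normalized counts of each Th1 gene in every library, on a log axis that differs between panels, with CCR8- libraries in blue and CCR8+ in red, the replicate number beside each point, a bar at the group median and gray lines joining libraries of the same number. CCR8+ replicate 3 lies at 479 for Ifng and 13.7 for Il12rb2, and the 2 groups are separate only for Ifngr2.

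Of the transcription regulators, *Tbx21* encodes T-bet, the lineage-defining factor of Th1 cells (chr11:97098071-97115331, minus strand). It had 815, 1642, 1643 and 1221 normalized counts in CCR8- replicates 1 to 4 and 1785, 1413, 858 and 1920 in CCR8+ replicates 1 to 4. The lowest libraries were CCR8- replicate 1 and CCR8+ replicate 3, one in each group, and the ranges overlapped almost wholly. Group means were 1494 ± 475 in CCR8+ and 1330 ± 397 in CCR8- cells, and the log2 fold change was 0.16 (SE 0.33, interval -0.56 to 0.87, limma adjusted p = 0.932, exact permutation p = 0.629). It was -0.059 without CCR8- replicate 1 and 0.40 without CCR8+ replicate 3. *Stat4*, the gene of the factor activated by IL-12 (chr1:51987148-52107189, plus strand), had 1815, 3130, 2921 and 2404 normalized counts in CCR8- replicates 1 to 4. In CCR8+ replicates 1 to 4 it had 2005, 2522, 1694 and 2418. Of the 8 members it varied least, with CCR8+ replicate 3 the lowest and the next lowest in CCR8- replicate 1. Its log2 fold change was -0.24 (SE 0.24, interval -0.76 to 0.28, limma adjusted p = 0.852, exact permutation p = 0.314). In the fit of all 8 libraries these intervals leave out a difference of more than 2-fold in either direction for both regulators. The log2 fold change of *Tbx21* rose to 0.52 without replicate 3 of each group. Intervals were not worked out for fits with libraries left out, so a *Tbx21* difference of more than 2-fold is not excluded there.

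The chains of the IL-12 receptor were readily measured in most libraries but held few reads in some. *Il12rb1* encodes the chain shared with the IL-23 receptor (chr8:70808449-70821424, plus strand) and had 9.85, 782, 833 and 400 normalized counts in CCR8- replicates 1 to 4. CCR8+ replicates 1 to 4 had 700, 1105, 739 and 615. CCR8- replicate 1 held 10 reads, and the remaining CCR8- libraries overlapped the CCR8+ range. The log2 fold change was 1.74 (SE 1.15, interval -0.78 to 4.26, limma adjusted p = 0.838, exact permutation p = 0.286), and it was 0.27 without CCR8- replicate 1.

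*Il12rb2* encodes the chain that makes a T cell responsive to IL-12 and that is kept by Th1 cells (chr6:67291318-67376188, minus strand). Normalized counts were 0.985, 354, 258 and 551 in CCR8- replicates 1 to 4 and 545, 409, 13.7 and 665 in CCR8+ replicates 1 to 4. A single read in CCR8- replicate 1 and 12 reads in CCR8+ replicate 3 contrasted with at least 258 normalized counts in the other 6 libraries. The log2 fold change was 1.11 (SE 1.80, interval -2.85 to 5.07, limma adjusted p = 0.905, exact permutation p = 0.514). It became -0.77 without CCR8- replicate 1, 2.40 without CCR8+ replicate 3 and 0.52 without both. No direction could be read from these libraries for *Il12rb2*.

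*Ifngr1*, the gene of the ligand-binding chain of the IFNγ receptor (chr10:19591949-19610229, plus strand), was the most abundant member in both groups per kilobase. It had 22397, 23585, 13110 and 21766 normalized counts in CCR8- replicates 1 to 4 and 14534, 18624, 7186 and 20815 in CCR8+ replicates 1 to 4. Replicate 3 was the lowest library of each group. Means were 15290 ± 5997 in CCR8+ and 20215 ± 4796 in CCR8- cells. The log2 fold change was -0.47 (SE 0.35, interval -1.24 to 0.30, limma adjusted p = 0.838, exact permutation p = 0.257), and it was -0.15 without CCR8+ replicate 3.

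*Ifngr2*, the gene of the signaling chain (chr16:91547072-91565623, plus strand), was the one member whose groups were separate. CCR8- replicates 1 to 4 had 1184, 1312, 665 and 1085 normalized counts of *Ifngr2*, and CCR8+ replicates 1 to 4 had 656, 577, 366 and 231. The highest CCR8+ library, at 656.0, lay just under the lowest CCR8- library, at 664.9. The means were 457 ± 194 in CCR8+ and 1061 ± 280 in CCR8- cells, a ratio of 0.431. The log2 fold change was -1.28 (SE 0.39, interval -2.14 to -0.42), with an unadjusted limma p of 0.00722 and an adjusted p of 0.838, so the gene was not called. The exact permutation p was 0.0286, the smallest that 4 against 4 libraries can give, for 1 of 8 members so tested. Groups that did not overlap with CCR8+ lower occurred in 2.03% of the 11032 genes. CCR8+ replicate 4, the CCR8+ library highest in *Ifng*, *Tnf*, *Tbx21*, *Il12rb2* and *Ifngr1*, was the lowest in *Ifngr2*. Weighting the libraries by quality gave -1.55 with a limma adjusted p of 0.0291, the only alternative in which a member was called. That setting called 112 of 11032 genes. It gave CCR8- replicate 2, the library highest in *Ifngr2*, a weight of 8.72, against 0.134 to 1.28 in the other CCR8- libraries.

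**Figure D3:**
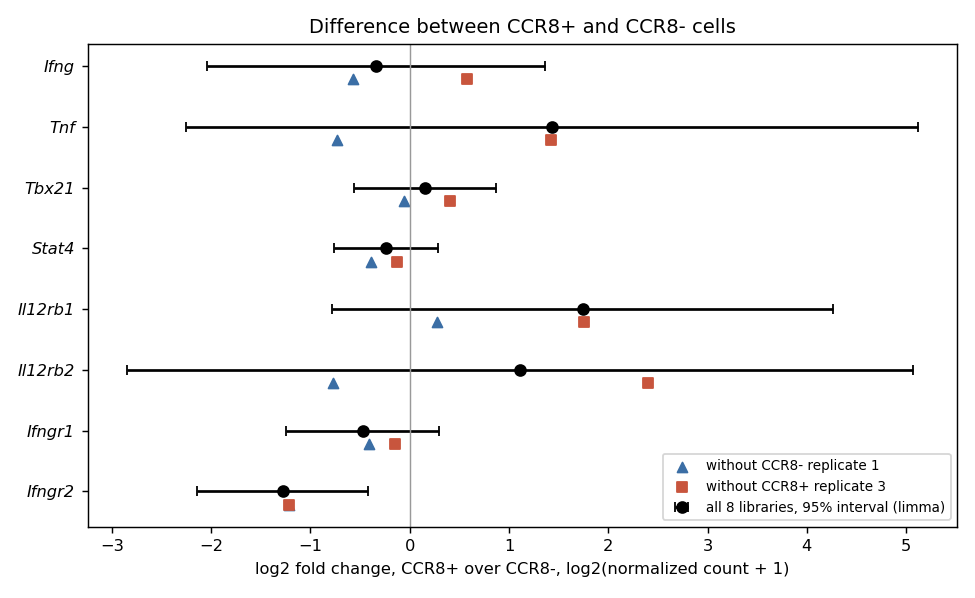
Log2 fold change of CCR8+ over CCR8- cells for each Th1 gene from limma, with its 95% confidence interval. The interval lies wholly below 0 for Ifngr2 alone (-2.14 to -0.42), and those of Tnf, Il12rb1 and Il12rb2 are the widest.

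No member passed the test between CCR8+ and CCR8- cells. Their limma adjusted p-values were between 0.838 and 0.942, and limma called 0 of 11032 genes (0%) at the limit of 0.05. At an unadjusted p under 0.05 the count was 562 genes, or 5.09%, and 1 of the 8 members. *Ccr8*, the gene of the sorted receptor, was not called either, although its groups did not overlap. Its log2 fold change was 2.37, with an unadjusted limma p of 0.0028 and an adjusted p of 0.83. The lack of a call in this test therefore does not show that a gene was equal in the groups. On the recovered reads, edgeR called 0 genes (0%) and 0 members. DESeq2 called 26 of the 2259 genes to which it gave an adjusted p (1.15%), and 0 of the 4 members with one, while the other 4 had none. *Ifngr2* was among those without an adjusted p, with a log2 fold change of -1.22 and an unadjusted DESeq2 p of 0.0055. Of the 8 members 4 had a positive and 4 a negative log2 fold change, and their median was -0.04 beside 0.04 over all genes tested.

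Within pairs of libraries of the same replicate number, *Ifng* differed by log2 values of 0.79, 0.44, -2.83 and 0.25 (CCR8+ minus CCR8-, pairs 1 to 4). *Ifng* was thus 1.73-, 1.35- and 1.19-fold as high in the CCR8+ library of pairs 1, 2 and 4, but 0.140-fold in pair 3. *Ifngr2* differed by -0.85, -1.18, -0.86 and -2.23 and *Ifngr1* by -0.62, -0.34, -0.87 and -0.06. Both receptor chains were therefore lower in the CCR8+ library of 4 of 4 pairs, as were 8.1% of all genes tested. For *Ifngr1* the difference in pair 4 was small beside those of the other pairs. No member was higher in 4 of 4 pairs, against 8.44% of all genes. *Tbx21* differed by 1.13, -0.22, -0.94 and 0.65 and *Stat4* by 0.14, -0.31, -0.79 and 0.01, so that neither regulator had one direction. *Il12rb1* was higher in CCR8+ replicates 1, 2 and 4 than in their CCR8- counterparts, by 6.01, 0.50 and 0.62, and differed by -0.17 in pair 3. In pairs 2 to 4 *Tnf* differed by -0.17, -1.04 and 0.09 and *Il12rb2* by 0.21, -4.14 and 0.27, and in pair 1 the CCR8- library had 1 read of each.

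In CCR8+ replicate 3 the values of several members were low. All 8 members were lower in CCR8+ replicate 3 than in CCR8- replicate 3, where 50% of all genes tested were. It was the lowest of the 8 libraries for *Ifng*, *Stat4* and *Ifngr1*, 3 of 8 members beside 13.4% of all genes. Within the CCR8+ group it was the lowest for 5 members, beside 28.1% of all genes. *Il12rb2* stood there at 2.54% of the mean of the other 3 CCR8+ libraries, a difference of 39.4-fold, and *Ifng* at 7.29%, or 13.7-fold lower. The shortfall was uneven, with *Tbx21* at 50.3%, *Stat4* at 73.2%, *Tnf* at 86.0% and *Il12rb1* at 91.6% of that mean. *Tnf* and *Il12rb1* were each second highest of the CCR8+ libraries there, and *Ifngr2* was lower in CCR8+ replicate 4. *Gata3*, the defining factor of Th2 cells, was at 14432 normalized counts in CCR8+ replicate 3 against 5344 to 7853 in the other CCR8+ libraries, and *Ccr8* was highest there. Replicate 3 was the highest for both genes in the CCR8- group too. *Gata3* was at 10463 there against 5057 to 9735, and *Ccr8* at 6214 against 1293 to 4637. High *Gata3* and *Ccr8* were thus not particular to the CCR8+ library of that number.

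CCR8- replicate 1 was low in another way. *Tnf*, *Il12rb1* and *Il12rb2* had at most 10 reads there, 3 of 8 members, as did 28.2% of all genes tested. It was the lowest of the 8 libraries for these 3 genes and for *Tbx21*, 4 of 8 members beside 27.6% of all genes, while *Ifngr1* and *Ifngr2* were at 22397 and 1184, among the highest. The part of this library's missing genes in the *Tnf* and IL-12 receptor values was not tested, but the fold changes without it are given above.

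**Figure D4:**
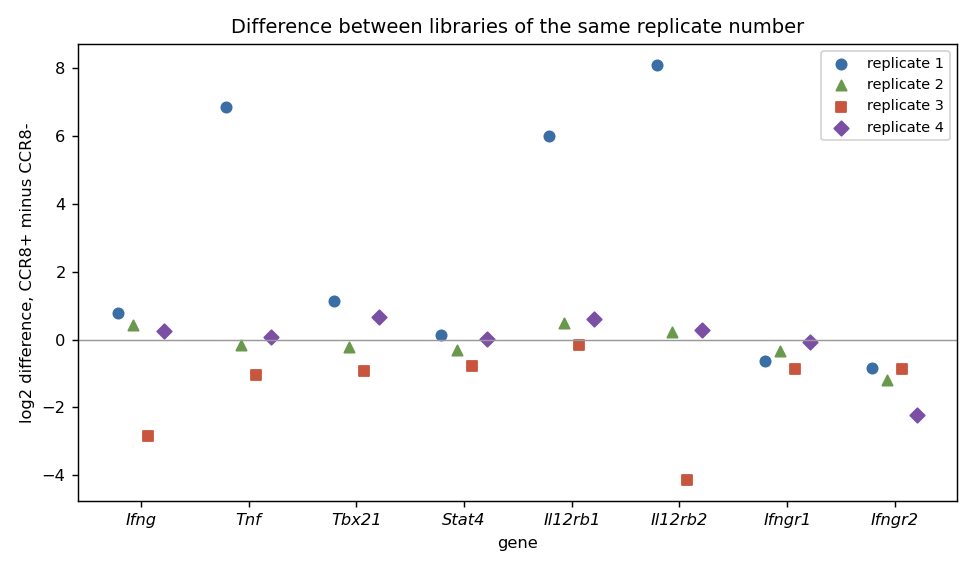
Log2 difference between the CCR8+ and the CCR8- library of the same replicate number, for each Th1 gene (log2 of normalized count + 1). All 8 squares of replicate 3 lie below 0, the highest circles are those of replicate 1 for Tnf, Il12rb1 and Il12rb2, where the CCR8- library held 1, 10 and 1 reads, and only Ifngr1 and Ifngr2 have all 4 symbols below 0.

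Across the 8 libraries, several correlations between members rested on one library. *Tnf* and *Il12rb1* had a Pearson r of 0.93 on the log2 scale, which was -0.37 without CCR8- replicate 1. *Ifng* and *Ifngr1* had an r of 0.79, which was 0.20 without CCR8+ replicate 3. *Ifng* and *Il12rb2* had an r of 0.68 over all 8 libraries, 0.96 without CCR8- replicate 1 and 0.82 without both libraries, and this pair kept its sign in each. The gene most like *Ifng* across the 8 libraries was *Serpinb9*, the gene of a granzyme B inhibitor (r = 0.96), followed by *Icam1*, the gene of an adhesion molecule (r = 0.96), and *Serpinb6b* (r = 0.95). *Nab1*, the gene of an EGR-binding corepressor, was among the 3 most like *Tbx21* (r = 0.96), *Vps37b* was the most like *Stat4* (r = 0.97), and *Cd69*, an early activation antigen, was among the 3 most like *Ifngr2* (r = 0.92). These correlations describe 8 points that share library depth and normalization and the 2 libraries that stood apart.

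In each list below, genes were named for a small unadjusted limma p or a high mean in these same data. For those with a small p, separate groups or one direction over the pairs follow in part from that choice. They are no independent support. The signaling partners of IL-12, IL-18 and IL-27 were 10 genes, of which 0 were called in either direction. Their median log2 fold change was 0.18 beside 0.04 over all genes, with 7 above 0 and 3 below, and it was 0.021 without CCR8- replicate 1. *Il2rb*, a chain of the IL-2 and IL-15 receptors, was abundant at 9450 ± 987 normalized counts in CCR8+ and 7532 ± 2492 in CCR8- cells. *Il18rap*, the accessory chain of the IL-18 receptor, had 1242 ± 289 and 1645 ± 442. It was lower in CCR8+ libraries of 4 of 4 pairs, as were 8.1% of all genes tested. *Myd88* went the other way, with 2022 ± 453 and 1407 ± 336. It was higher in 4 of 4 pairs, beside 8.44% of all genes tested. *Il6st*, which encodes gp130, had 115 ± 66.0 and 433 ± 343.

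Among 10 genes of IFNγ receptor signaling 0 were called, the median was -0.07 (-0.18 without CCR8- replicate 1), and 4 were above 0 and 6 below. *Jak1*, the kinase bound to the chain encoded by *Ifngr1*, had 4870 ± 161 normalized counts in CCR8+ and 5274 ± 1070 in CCR8- cells. *Stat3*, the factor of IL-6 family signals, had 3842, 4630, 7558 and 6224 normalized counts in CCR8+ and 2801, 3297, 3494 and 3609 in CCR8- replicates 1 to 4. Its groups did not overlap, as with CCR8+ higher in 2.37% of all genes, and the log2 fold change was 0.71 (SE 0.24, unadjusted limma p = 0.0122, adjusted p = 0.838, exact permutation p = 0.0286). *Pias1*, the gene of a SUMO ligase, also had separate groups, as with CCR8+ lower in 2.03% of all genes. It had 586 ± 333 in CCR8+ and 1481 ± 732 in CCR8- cells, and its log2 fold change was -1.42 (SE 0.46, limma adjusted p = 0.838). Both *Stat3* and *Pias1* were named for their small p, so their separation is not independent of that choice.

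The 16 IFNγ-induced targets had a median log2 fold change of -0.43, with 11 below 0, 5 above and 0 called. The median was -0.15 without CCR8+ replicate 3 and -0.64 without CCR8- replicate 1. *Gbp7*, the gene of a guanylate-binding protein, had 1669 ± 120 normalized counts in CCR8+ and 2707 ± 886 in CCR8- cells (limma adjusted p = 0.838). Its groups were separate, as with CCR8+ lower in 2.03% of all genes. *Nlrc5*, the activator of MHC class I genes, had 406 ± 214 and 775 ± 220. *Irf8*, a transcription factor gene of the list, had 1098 ± 431 in CCR8+ and 504 ± 303 in CCR8- cells. It was higher in 4 of 4 pairs, as were 8.44% of all genes tested. The medians of the list in pairs 1 to 4 were 0.48, -0.66, -0.97 and -0.51, and CCR8+ replicate 3 was the lowest library for 7 of its 16 genes.

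The 10 genes of TNF processing and its receptors had a median of -0.17, with 5 above 0, 5 below and 0 called. Without CCR8+ replicate 3 the median was 0.36, of the opposite sign, and without CCR8- replicate 1 it was -0.32. *Ltb*, the gene of lymphotoxin beta, had 3758 ± 1461 normalized counts in CCR8+ and 5712 ± 763 in CCR8- cells. *Tnfaip3*, which encodes the NF-κB inhibitor A20, had 12566 ± 1938 and 17553 ± 5260. Both were lower in the CCR8+ library of 4 of 4 pairs, as were 8.1% of all genes tested.

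Of 10 Th1-associated transcription factors 8 were in the table and 0 were called, with a median of 0.26, 5 above 0 and 3 below. *Bhlhe40*, a factor that sustains cytokine production, was the most abundant at 25453 ± 5573 normalized counts in CCR8+ and 18722 ± 4201 in CCR8- cells. It was higher in 4 of 4 pairs, beside 8.44% of all genes tested. *Nfil3*, a basic leucine zipper factor, had 3920 ± 1573 and 2177 ± 507. *Id2*, an inhibitor of E proteins, had 20752 ± 7310 and 15024 ± 3010.

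Among 15 Th1-associated surface molecules and effectors 0 were called, with a median of -0.11, 7 above 0 and 8 below. The median had no stable sign, being 0.34 without CCR8+ replicate 3, 0.26 without CCR8- replicate 4, -0.34 without CCR8- replicate 1, -0.62 without CCR8+ replicate 2 and 0.21 after quantile normalization. CCR8+ replicate 3 was the lowest library for 9 of these 15 genes, beside 13.4% of all genes. *Ccl5*, a chemokine of effector T cells, was at 377 normalized counts in CCR8+ replicate 3, against 1415 to 5411 in the other CCR8+ and 3264 to 13179 in the CCR8- libraries. *Havcr2*, which encodes the inhibitory receptor TIM-3, had 1697 ± 378 in CCR8+ and 940 ± 441 in CCR8- cells (log2 fold change 0.96, SE 0.36, limma adjusted p = 0.838). It was higher in 4 of 4 pairs, beside 8.44% of all genes tested. *Il2*, the gene of the T cell growth factor IL-2, was at 1.08, 113, 1.14 and 62.7 normalized counts in CCR8+ replicates 1 to 4 and at 140, 137, 72.8 and 157 in CCR8- replicates 1 to 4. The value was 1 read in CCR8+ replicates 1 and 3.

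The 6 factors of opposing T cell lineages had a median of -0.14, with 3 on each side of 0 and 0 called. It was -0.55 without CCR8- replicate 1, -0.40 without CCR8+ replicate 3 and 0.22 without CCR8- replicate 3. *Gata3* had 8760 ± 3936 normalized counts in CCR8+ and 8076 ± 2491 in CCR8- cells. *Rbpj*, the DNA-binding partner of Notch, had 1933 ± 1071 and 918 ± 325 and was higher in 4 of 4 pairs, beside 8.44% of all genes tested. *Maf* had 517 ± 226 and 665 ± 289.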

How the data were processed

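Per the labels and methods, RNA was made into libraries with the Clontech SMARTer low-input kit. The authors used Cutadapt for trimming and hisat2 for alignment to NCBIM37, counted reads that mapped uniquely, and scaled to library size using intergenic reads. The submitters' processing notes name FastQC, cutadapt, HTSeq, DESeq2, NCBIM37 and mm9. Tool versions and strand use are not given in the sources used here. Each deposited value is a signal, the reads of a gene divided by the factor of its library, and is called a normalized count here. All (100%) were within 0.02 of a whole multiple of 1 read in each library, and whole reads were recovered. Libraries of this kind carry no molecular identifiers, so read limits cover counting error only.

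Differences were tested with limma 3.58.1 (R 4.3.3, intensity trend) on log2(normalized count + 1) for 11032 of 11233 genes, those whose mean reached 10. P-values were adjusted by Benjamini-Hochberg, with a call at an adjusted p under 0.05. A fold on this scale understates changes of low genes. Groups followed the labels, and single genes had exact two-sided permutation tests over 70 assignments. The members and lists were chosen with earlier results of these data known. Besides the members, genes were named from those that met a rule in these data. For each list these were the 3 with the smallest unadjusted p and the 2 with the highest mean. For each member they were the 3 with the highest Pearson r. Not all of these genes are named here. *Ccr8* and marker genes were added as checks. Markers of dendritic cells, B cells and melanoma cells were read too. Some genes of the lists are not reported by name here.

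Alternatives were a pseudocount of 0.1 or 10, a minimum mean of 100 or none, scaling to a total of 1000000 per library, by TMM factors or by quantiles, limma without trend, with robust variances or with library quality weights, a fold limit of 3 for calls, the replicate number as a block, each library and each replicate number left out, and edgeR 4.0.16 and DESeq2 1.42.0 on the recovered reads. Leaving out both CCR8- replicate 1 and CCR8+ replicate 3 was chosen after seeing the data. Tests were tried on simulated data first. Gene positions and exon lengths are from GENCODE on GRCm38, not the authors' build, and were used only to locate genes and scale levels per kilobase. Promoter windows are from RefSeq.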

Additional observations from a re-analysis of the deposited data

Results flagged for a closer look

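Single libraries that stood far from the other 3 of their group were looked for in 88 groups of 4 values, by the gap to the nearest library as a share of the group's range (Dixon's test). The search used normalized counts without logs. There were 8 such values, where chance gives about 5% of groups, and none was of a member on this scale. On the log2 scale of the tests, which the search did not use, very low values such as those of *Tnf*, *Il12rb1* and *Il12rb2* lie further from the others. *Il21r*, the IL-21 receptor gene, was at 542 normalized counts in CCR8- replicate 1 against 5425 to 6098 in the other CCR8- libraries. *Nfil3* was at 1417 there against 2397 to 2457, and *Gbp7* was at 4031 there against 2193 to 2362. *Tnfaip3* was highest in replicate 3 of both groups, at 15458 against 11379 to 11863 in CCR8+ and at 25388 against 14346 to 15798 in CCR8- libraries. *Ccl5* was at 13179 in CCR8- replicate 4 against 3264 to 3898. The summed macrophage and monocyte markers were at 86252 in CCR8- replicate 4 against 35.5 to 4594. The summed B cell markers were at 447 in CCR8+ replicate 1 against 0 to 48.7.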

How the results depend on the processing

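*Stat4*, *Il12rb1*, *Ifngr1* and *Ifngr2* kept their direction in all 28 alternatives, with ranges over left-out libraries of -0.39 to -0.05, 0.27 to 2.38, -0.67 to -0.15 and -1.49 to -0.96. The log2 fold change of *Ifng* ranged from -0.90 to 0.58 over left-out libraries, that of *Tnf* from -0.73 to 2.27, *Tbx21* from -0.17 to 0.52 and *Il12rb2* from -1.22 to 2.86. *Ifng* was 0.14 with edgeR, 0.13 with DESeq2, 0.29 with quality weights and 0.34 without both CCR8- replicate 1 and CCR8+ replicate 3. *Tnf* was -0.18 with edgeR and with DESeq2 and -0.74 without both libraries, and *Tbx21* was -0.055 with quality weights. The cause was not tested. Genes called numbered 2 without the trend, 26 with DESeq2 and 112 with quality weights, which also called 1 member, *Ifngr2* (-1.55, adjusted p = 0.0291 by limma), and from the lists *Gbp4* (-0.93), *Irf8* (1.76), *Csf2* (1.43) and *Rbpj* (1.21), named because they were called. The median of the opposing lineage list was -0.58 with quality weights and ranged from -0.55 to 0.22 over left-out libraries. With the replicate block, 1 gene was called by limma, 0 by edgeR and 124 by DESeq2, with *Ccl5* (-1.58) and *Rbpj* (0.996) among the last and no member called. Under that block *Ifngr2* had a limma adjusted p of 0.758 and a DESeq2 adjusted p of 0.102. Same-numbered libraries deviated from their group means with correlations of 0.0682, 0.138, 0.108 and 0.217, against -0.171 to 0.101 for other pairs. Of these 4 correlations 3 were above those of every differently numbered pair, but 1 was under 0.1 and the labels do not say what a number stands for, so the numbers were not taken to pair the libraries. Low reads limit *Tnf*, *Il12rb1* and *Il12rb2* in CCR8- replicate 1 and *Il12rb2* in CCR8+ replicate 3.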

Other observations

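Markers of 3 further cell types were read in the same libraries. The summed level of 6 dendritic cell markers ranged from 398 to 697 normalized counts in CCR8+ and from 304 to 1304 in CCR8- libraries. *Ms4a1*, which encodes the B cell surface protein CD20, had no read in any library, and the sum of 4 B cell markers ranged from 0 to 447 in CCR8+ and from 29.4 to 365 in CCR8- libraries. The sum of 6 melanoma cell markers ranged from 232 to 21777 in CCR8+ and from 105 to 17279 in CCR8- libraries, with replicate 4 the highest in both groups. Replicate 4 was also the library of each group with the highest *Ifng*. The part of these cells in the values of the Th1 genes was not tested.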
